A study of Drosophila melanogaster with 6 samples.

Results

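A set of 29 protein-coding genes, out of 17321 genes in the table, was at or near the detection limit in control enteroblasts (EBs) and present in every library of Sox21a EBs. A gene entered the set when all 3 control values were at most 10 and all 3 Sox21a values were at least 50 normalized reads, taking the transcript with the highest mean over the 6 libraries for each gene. The members were thus selected on the same contrast that is described here. Symbols of the Cyp, Gst, Jon, Drsl and Att families and of non-coding CR genes were left out. Since these 6 values per gene chose the members, they are given below as a description, and no p-value is attached to any of the 29. Among them were a flavin-containing monooxygenase (Fmo-1), a chitin-binding protein of the tracheal lumen (Gasp), a syntrophin (Syn2), a cell death inducer (rpr), a neuropeptide precursor (Proc) and 15 genes known only by a CG number.

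EBs are the committed daughters of intestinal stem cells. They receive Notch signal from the stem cell and mature into enterocytes, which absorb nutrients. Sox21a encodes a SOX-family transcription factor, and the comparison asks which transcripts differ in EBs that lack a functional copy. The Sox21a EBs (3 libraries) came from female flies homozygous for a Sox21a mutation, and the control EBs (3 libraries) from females described as Sox21a/+ in the methods and as wild-type in the labels. Both groups carried Su(H)GBE-Gal4 and UAS-CD8::GFP, the flies were 16 to 18 days old and kept at 25 °C, and GFP-positive cells were sorted from the anterior midgut. The Sox21a alleles of the study are small deletions in the HMG domain that shift the reading frame, and which allele was used for sequencing is not given in the sources used here. The driver reports Notch response, so the sort selects cells by that response and not by stage. As the allele keeps most of the transcript, the Sox21a gene itself cannot check the labels: it had 14474, 14697 and 19025 normalized reads in Sox21a EBs, against 14123, 17337 and 16781 in control EBs.

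The libraries summed to between 37286049 and 45955837 steps, a step being the unit of which every value in a library is a whole multiple. No value was under 2 steps. A gene 3 steps or less above that smallest value was taken as at the detection limit, which was 4.92 to 5.58 normalized reads depending on the library and covers counting error only. Of 11400 transcripts tested with limma (mean of at least 10, Benjamini-Hochberg adjusted p under 0.05), 23.6% were higher and 11.3% lower in Sox21a EBs. With the replicate block these shares were 25.1% and 12.1%. Rescaling the libraries on well expressed transcripts (mean over 100) turned this split to 1881 higher and 1919 lower, against 2693 and 1293, and moved the median log2 difference of all tested transcripts to 0.01, against 0.21. The p-values measure the spread between these libraries. With each gene at its highest transcript, 24.2% of the genes tested were higher and 10.2% lower. The counts of gene lists below stand beside these shares, and no list was tested as a set. Because the sorted cells were sequenced in bulk, more cells of a type and more RNA per cell cannot be told apart.

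All 29 genes had Sox21a and control values that did not overlap, which the rule itself fixes; of the transcripts tested, 34.8% had all Sox21a values above all control values. The thresholds were met by 0.196% of all genes and by 0.456% of the 7454 genes that had all 3 control values at most 10, and nothing was read from these shares. Of those 7454 genes, 6787 also had every Sox21a value at most 10 and 633 lay between. In Sox21a EBs the 29 means had a median of 131 normalized reads (lowest 59.1, highest 930), against a median of 560 over all genes tested. Thus 8 genes had a mean over 200, 13 had a mean between 100 and 200, and 8 were under 100. In control EBs, 60 of the 87 values were at or under the detection limit and 28 were at the smallest value. For 15 of the 29 genes all 3 control values were at or under the limit. The log2(value + 1) difference had a median of 4.96 (range 3.32 to 7.58), a scale on which the difference of such low control values is understated.

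**Figure D1:**
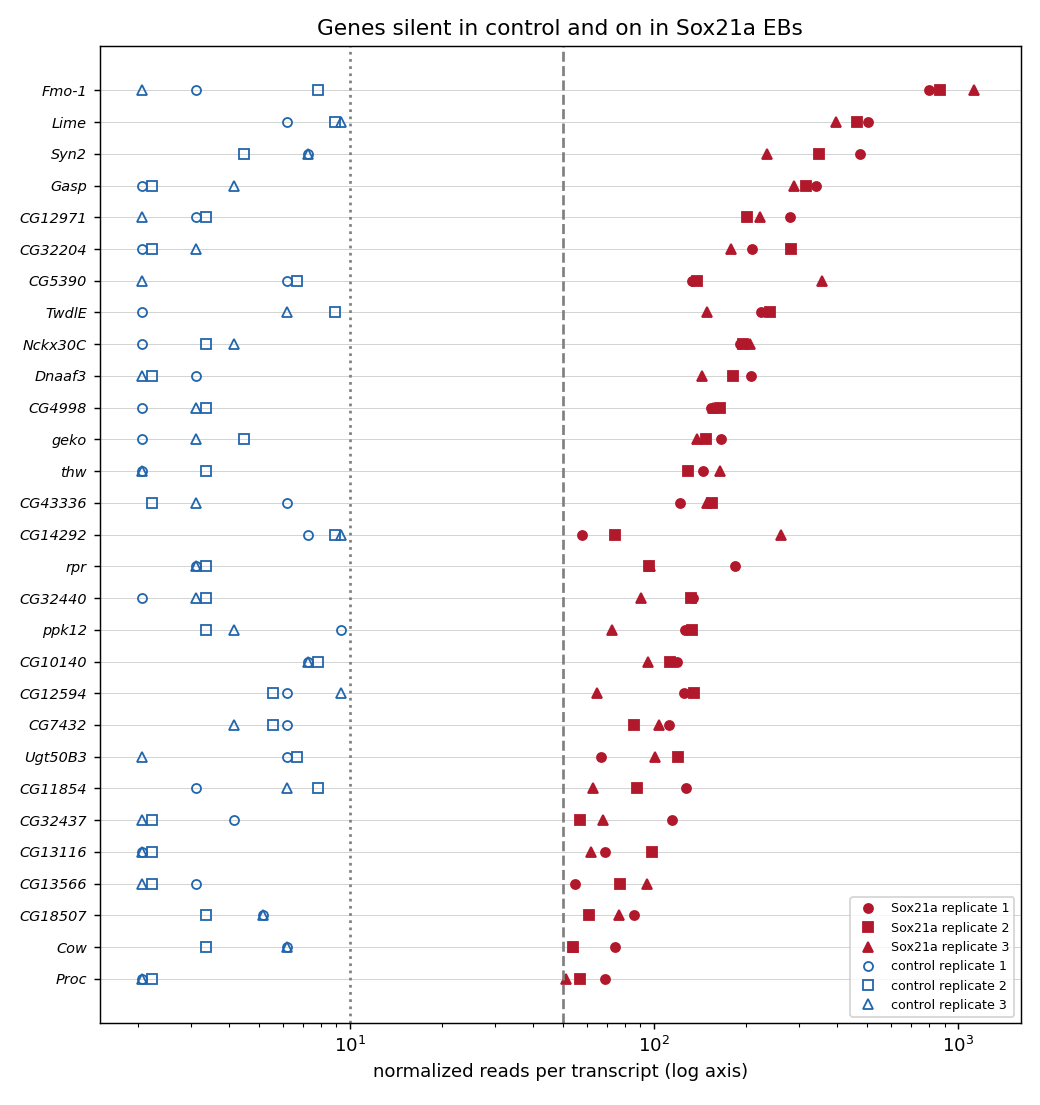
Normalized reads (log axis) of each of the 29 genes in the 3 Sox21a libraries (filled symbols) and the 3 control libraries (open symbols), ordered by the mean in Sox21a EBs. The dotted line marks the control ceiling of 10 and the dashed line the Sox21a floor of 50; Fmo-1 reached 803 to 1121 in Sox21a EBs, and Proc lay closest to the floor.

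The most abundant gene of the set encodes an enzyme. Fmo-1 is a flavin-containing monooxygenase, a class that oxidizes nitrogen and sulphur atoms of small molecules with NADPH. It had 803, 867 and 1121 normalized reads in Sox21a EBs, against 3.10, 7.82 and 2.07 in control EBs (930 ± 168 against 4.33 ± 3.06, SD, n = 3 each), and the log2(value + 1) difference was 7.58. Every Sox21a library was high, and 2 of the 3 control libraries were under the detection limit. Per kilobase of annotated exon, the Sox21a level of Fmo-1 was 640, the highest of the 29. The other flavin monooxygenase of the fly, Fmo-2, went the other way: it had 544, 644 and 738 normalized reads in Sox21a EBs, against 1495, 2359 and 2886 in control EBs. That difference was -1.76 on the log2(value + 1) scale (standard error 0.27, limma adjusted p = 0.0027), with every Sox21a value below every control value.

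Ugt50B3 (CG30438 in the table) is a UDP-glycosyltransferase, an enzyme that conjugates sugars to lipophilic compounds. Its values were 67.0, 120 and 100 normalized reads in Sox21a EBs, against 6.21, 6.70 and 2.07 in control EBs. Its annotated transcripts -RB, -RD and -RE held almost the same values as the -RC used here, so these isoforms were not separated by the counting. A list of 35 UDP-glycosyltransferases held 25 others that were tested. Of these, 6 were higher and 8 lower in Sox21a EBs, beside 24.2% and 10.2% of all genes tested. Close to the control ceiling were Ugt49B1 (log2 difference 3.33, limma adjusted p = 8.6e-05) and Ugt49C1 (3.21, adjusted p = 0.00015), whereas Ugt37A3 fell by 4.28 on the log2 scale (adjusted p = 0.00018). The family thus held calls in both directions, and its counts were not tested as a set.

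At least 3 genes of the set encode proteins of chitinous or cuticular matrices. Such matrices line the trachea, the foregut and the hindgut, while the midgut is lined by a peritrophic matrix that also holds chitin. Gasp binds chitin in the lumen of the tracheal tube. It lies on chromosome 3R of the Release 6 genome (6088799 to 6100887, minus strand) and had 339, 315 and 287 normalized reads in Sox21a EBs, against 2.07, 2.23 and 4.14 in control EBs (314 ± 25.9 against 2.81 ± 1.15, SD, n = 3 each). The 3 Sox21a libraries were close together, and all control values were under the detection limit. CG10140, which carries chitin-binding domains, had 119, 113 and 95.4 normalized reads in Sox21a EBs and 7.24, 7.82 and 7.24 in control EBs. TwdlE, a cuticle protein of the Tweedle family, had 224, 240 and 150 in Sox21a EBs and 2.07, 8.93 and 6.21 in control EBs. Of its exon bases, 71.9% overlap lectin-28C on the other strand, so the reads of these genes cannot be told apart.

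Most other genes of these families were too low to be tested, and 67 of 119 cuticle protein genes were at the smallest value in all 6 libraries. Of 11 other cuticle protein genes tested (119 listed), 2 were higher and 1 lower, beside 24.2% and 10.2% of all genes tested. Cpr51A (log2 difference 2.40, limma adjusted p = 0.00042) and Cpr49Ae (1.98, adjusted p = 0.0093) were higher in Sox21a EBs. Cpr11B was lower (-1.52, adjusted p = 0.00038). Of 20 chitin and cuticle assembly genes outside those families, only 3 apart from Gasp and CG10140 were tested and none was called by limma. These were knk (0.32), serp (0.35) and Cht2 (0.41, adjusted p = 0.067), and 1 of the 3 had an unadjusted p under 0.05. Among 10 tracheal marker genes, Gasp included, the summed level was 1936 to 2618 normalized reads in Sox21a EBs and 723 to 1000 in control EBs. Gasp itself gave 287 to 339 of these reads in Sox21a EBs and 2.07 to 4.14 in control EBs. That part of the difference was fixed by the rule. Beside 24.2% of all genes tested, 2 of the 4 other tracheal markers tested were higher. These were btl, the tracheal FGF receptor (log2 difference 1.29, adjusted p = 0.0045), and trh, a transcription factor that specifies trachea (1.04, adjusted p = 0.026, a call lost under the rescaling at 0.065). The study itself reported a btl reporter in some Sox21a EBs and in no intestinal cell of wild-type midguts. serp was not called, and rib was called only with the replicate block (adjusted p = 0.034, against 0.12 without it). The remaining markers vvl, verm, pio, obst-A and kkv were too low to be tested, at 1.97 to 8.27 in all 6 libraries. The part of tracheal cells in the Gasp values was not tested.

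Another 4 genes belong to the serine protease family, named here from RefSeq synonyms. CG5390, CG4998 and CG43336 are serine protease homologues and CG7432 is a serine protease; clip domains, which tie such proteins into proteolytic cascades of immunity and development, are listed for CG5390, CG4998 and CG7432. CG4998 was among the least variable genes of the set, with 154, 164 and 156 normalized reads in Sox21a EBs, against 2.07, 3.35 and 3.10 in control EBs. CG43336 had 121, 155 and 150 in Sox21a EBs and 6.21, 2.23 and 3.10 in control EBs. CG7432 had 112, 86.0 and 103 in Sox21a EBs and 6.21, 5.58 and 4.14 in control EBs. In contrast, CG5390 was uneven: it had 133, 138 and 357 in Sox21a EBs and 6.21, 6.70 and 2.07 in control EBs, so that a single library, Sox21a replicate 3, carried the highest value.

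Among 17 other clip-domain genes tested (50 listed), 5 were higher and 2 lower in Sox21a EBs, beside 24.2% and 10.2% of all genes tested. The fit with the replicate block called 7 higher and 3 lower among these clip-domain genes. CG3505 rose most, with 256, 229 and 240 normalized reads in Sox21a EBs, against 20.7, 24.6 and 20.7 in control EBs (log2 difference 3.40, standard error 0.15, limma adjusted p = 2.3e-05). CG40160 was also higher (3.06, adjusted p = 0.0051). The embryonic dorsoventral protease snk (-2.38, adjusted p = 0.0015) and the melanization protease Sp7 (-1.92, adjusted p = 0.0064) were lower. Across all 103 other serine proteases and homologues tested, 18 were higher and 33 lower. Most of that larger family consists of genes without a clip domain, digestive enzymes among them.

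Syn2 encodes a syntrophin, an adaptor that binds the dystrophin complex and links the cytoskeleton to the extracellular matrix. It lies on 2R (16552258 to 16558486, plus strand) and had 476, 348 and 235 normalized reads in Sox21a EBs, against 7.24, 4.47 and 7.24 in control EBs (353 ± 121 against 6.32 ± 1.60, SD, n = 3 each). All Sox21a values were high but spread over a 2.02-fold range. Its paralog Syn1 was already present in control EBs and had a log2 difference of 0.23 (limma adjusted p = 0.36). Within the complex, dystrophin itself (Dys) fell to 4728, 5626 and 7887 normalized reads in Sox21a EBs, against 12602, 14960 and 13220 in control EBs (log2 difference -1.19, adjusted p = 0.0061). Dystrobrevin (Dyb) was higher (1.15, adjusted p = 0.016), as was the sarcoglycan Scgdelta (0.85, adjusted p = 0.0068), and dystroglycan (Dg) was at -0.40 (adjusted p = 0.12). Dyb was no longer called without Sox21a replicate 2 (1.07, adjusted p = 0.056), and Dg was called under the rescaling (-0.60, adjusted p = 0.025).

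Syntrophin is well known from muscle, so visceral muscle markers were examined beside it. Of 12 listed, 4 were tested and 2 were higher, beside 24.2% of all genes tested. The higher ones were the sarcomere genes Zasp52 (log2 difference 1.71, limma adjusted p = 0.00044) and sls (2.15, adjusted p = 0.0030). The summed level of the list was 4979 to 6581 normalized reads in Sox21a EBs and 1628 to 1921 in control EBs, nearly all of it from Zasp52. Muscle myosin heavy chain (Mhc) was at 2.00 to 10.8 in Sox21a EBs and 2.07 to 8.27 in control EBs. Act57B, a muscle actin, was at 3 to 19.7 in Sox21a EBs and 3.10 to 7.82 in control EBs. The part of muscle cells in the Syn2 values was not tested.

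Membrane transport was represented by Nckx30C and ppk12. Nckx30C is a potassium-dependent sodium/calcium exchanger that extrudes calcium and is known from the eye. It had 191, 195 and 206 normalized reads in Sox21a EBs, against 2.07, 3.35 and 4.14 in control EBs, and was thus the next most even gene of the set after CG4998. Isoforms counted apart were also present, with means of 107 (Nckx30C-RA) and 166 (Nckx30C-RD) in Sox21a EBs and 2.81 in control EBs for each. Of 9 sodium/calcium exchangers listed, only 2 others were tested, and neither was called higher. Calx was at -0.26 (limma adjusted p = 0.27) and CG5348 fell by 3.47 on the log2 scale (adjusted p = 0.0027). ppk12 encodes a sodium channel subunit of the DEG/ENaC class. It had 126, 133 and 72.8 normalized reads in Sox21a EBs, against 9.31, 3.35 and 4.14 in control EBs, and one control library lay just under the ceiling. Of 6 other ppk genes tested, ppk19 was higher (0.71, adjusted p = 0.012). In the wider list of chemosensory and DEG/ENaC receptors, 10 of 33 tested were higher and 1 lower, beside 24.2% and 10.2% of all genes tested. With the replicate block, 8 of these receptors were higher and 3 lower. Among those higher was Gr94a (4.60, adjusted p = 0.00029), a gustatory receptor gene.

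Secreted signals and carriers formed a smaller group with low levels. Proc encodes the neuropeptide proctolin, which acts on visceral muscle. It had 69.0, 57.0 and 51.2 normalized reads in Sox21a EBs and was at the smallest value of the table in all 3 control libraries, so that its mean was at least 11.1-fold higher in Sox21a EBs against the detection limit of the control mean. The receptor gene Proc-R was not tested because of low values, at 1.97 to 5 in Sox21a EBs and 3.10 to 7.82 in control EBs. Proc is a peptide gene, and peptide-producing enteroendocrine markers were examined beside it. Of 12 tested, 5 were higher and 1 lower, beside 24.2% and 10.2% of all genes tested. CCHa2 was among the higher ones (log2 difference 3.57, limma adjusted p = 0.0042). The summed level of the enteroendocrine list was 6909 to 12630 normalized reads in Sox21a EBs and 4978 to 5531 in control EBs. The fate regulator pros was the one that fell (-1.43, adjusted p = 0.019). Of 7 neuronal markers tested, 1 was higher and 1 lower, with summed levels of 9288 to 9897 in Sox21a EBs and 6490 to 9175 in control EBs, and the part of either cell type in the Proc values was not tested.

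Cow (CG13830 in the table) is a secreted heparan sulphate proteoglycan that carries Wingless. Its values were the closest to the floor after Proc, with 74.0, 54.0 and 54.1 normalized reads in Sox21a EBs and 6.21, 3.35 and 6.21 in control EBs. The isoform Cow-RC, counted apart, was at a mean of 7.30 in Sox21a EBs and 3.50 in control EBs; the values of the set are those of Cow-RD. Of the glypicans, which also bind Wingless, dlp had 826, 741 and 655 normalized reads in Sox21a EBs, against 106, 122 and 160 in control EBs (log2 difference 2.53, limma adjusted p = 0.00019), while dally was at -0.32 (adjusted p = 0.36). CG11854 encodes a relative of takeout, a family of secreted proteins that bind small hydrophobic ligands. It had 127, 88.0 and 63.0 in Sox21a EBs and 3.10, 7.82 and 6.21 in control EBs. Its neighbour takeout (to) was at no more than 2 in Sox21a EBs and at 27.9, 2.23 and 2.07 in control EBs.

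Further named genes of the set were diverse. Lime (CG18446 in the table) is a zinc-finger protein named for linking immunity and metabolism. It was the next most abundant gene after Fmo-1, with 506, 464 and 395 normalized reads in Sox21a EBs, against 6.21, 8.93 and 9.31 in control EBs. Every control value was above the detection limit, so Lime was near the ceiling rather than undetected. Dnaaf3 (CG17669) is an assembly factor for axonemal dyneins, motors of cilia and sperm tails. It had 208, 181 and 144 in Sox21a EBs and 3.10, 2.23 and 2.07 in control EBs. The testis markers Mst84Da, can, ProtA and ProtB were at the smallest value in all 6 libraries. Of 7 testis markers tested, 3 were higher and 1 lower by limma, beside 24.2% and 10.2% of all genes tested. With the replicate block, 3 were higher and 2 lower. The summed level of 19 testis markers was 3312 to 4109 in Sox21a EBs and 3315 to 4703 in control EBs. geko (gk) is known from a mutation that alters olfactory behaviour. It had 166, 148 and 138 in Sox21a EBs and 2.07, 4.47 and 3.10 in control EBs. The gene now named thw (CG14608), for which no role is given here, had 144, 129 and 164 in Sox21a EBs. It had 2.07, 3.35 and 2.07 in control EBs.

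Cell death genes of a single chromosomal region moved in opposite directions. rpr encodes Reaper, which binds and removes the inhibitor of apoptosis Diap1. It lies on 3L (18397535 to 18398435, minus strand) and had 184, 96.0 and 96.4 normalized reads in Sox21a EBs, against 3.10, 3.35 and 3.10 in control EBs (125 ± 50.7 against 3.19 ± 0.14, SD, n = 3 each), and the log2(value + 1) difference was 4.85. All control values were under the detection limit, and Sox21a replicate 1 was the highest of the 3. grim, a cell death gene of the same family about 94.4 kb away, was the reverse. It had 7, 6 and 1.97 normalized reads in Sox21a EBs, against 444, 429 and 431 in control EBs (log2 difference -6.31, standard error 0.36, limma adjusted p = 5.5e-05). The non-coding genes CR45975 and CR45974 overlap grim in position and were also lower (-5.89 and -3.64). These 3 genes share reads that the counting may split, so their values are not independent.

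Between rpr and the next family member, the cell death gene skl, lay 40.1 kb. skl had 15, 16 and 7.87 normalized reads in Sox21a EBs, against 4.14, 2.23 and 4.14 in control EBs; the groups did not overlap, but the mean was under 10 and the gene was not tested. hid, the remaining family member, had a log2 difference of -0.50 (limma adjusted p = 0.085), and the rescaled fit with the replicate block gave -0.69 (adjusted p = 0.038). Diap1, their common target, was at -0.36 (adjusted p = 0.18). Of these 4 cell death genes, rpr met the thresholds of the set and grim the mirrored ones.

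**Figure D2:**
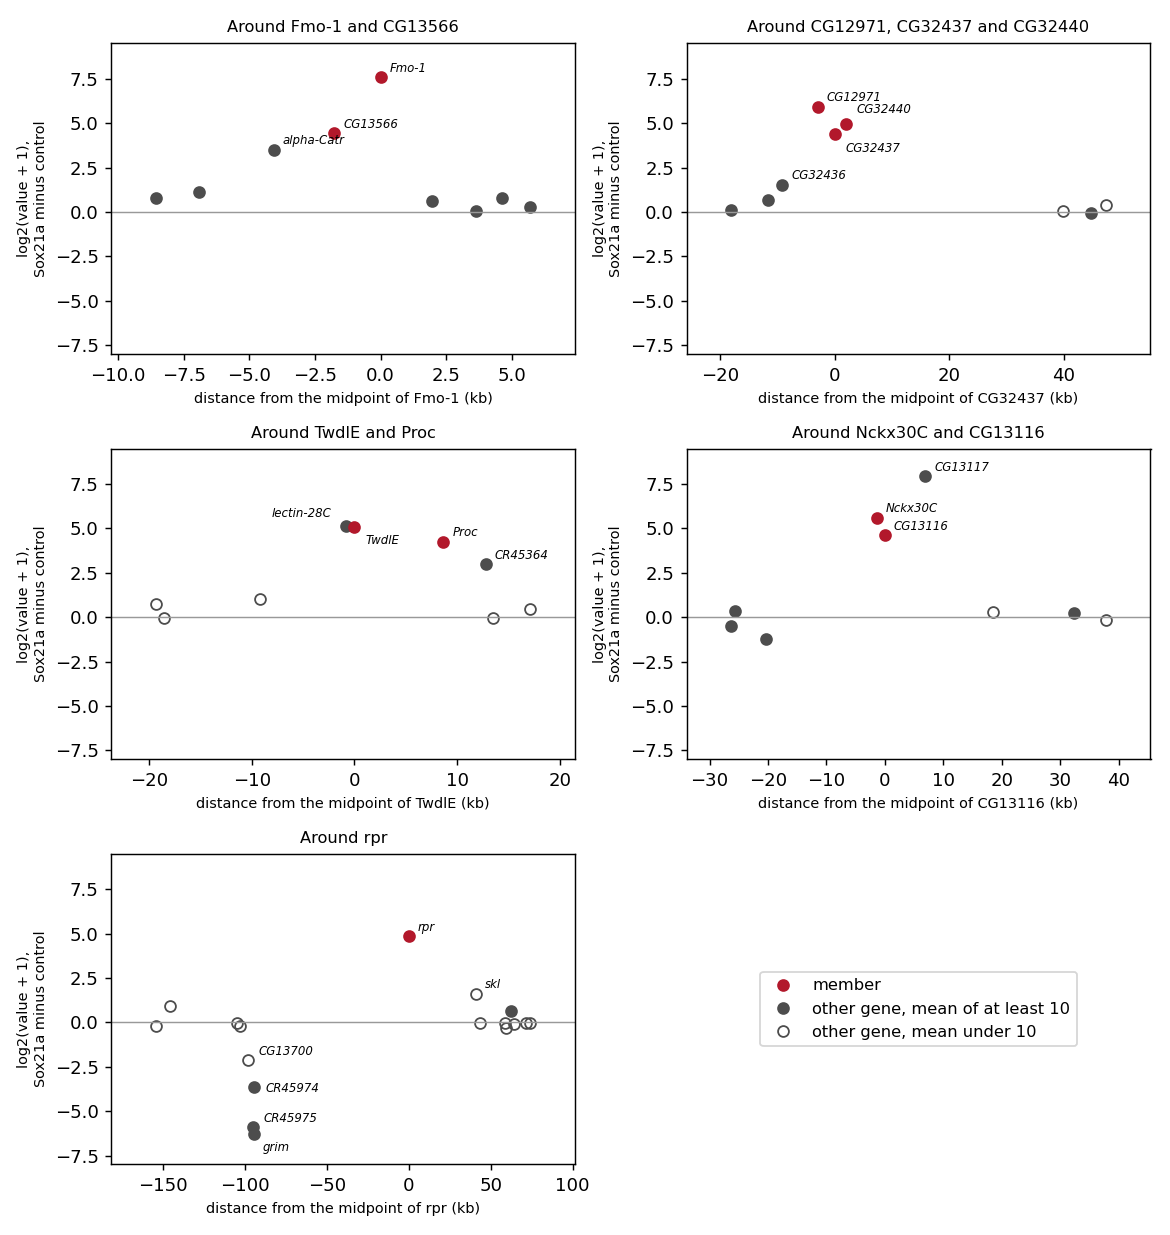
Difference in log2(value + 1), Sox21a minus control, of genes around 5 places with members of the set, against the distance from the midpoint of one of them in kb. Red points are genes of the set, dark points other genes with a mean of at least 10 and open points genes under it; around rpr, grim lies at -6.31 and rpr at 4.85.

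Members of the set without a known role included several of the more abundant ones. CG12971 had 280, 201 and 223 normalized reads in Sox21a EBs, against 3.10, 3.35 and 2.07 in control EBs, and per kilobase of exon its Sox21a level of 268 was next after Fmo-1. CG32204 had 210, 282 and 179 in Sox21a EBs and 2.07, 2.23 and 3.10 in control EBs. In both, all Sox21a values were high and all control values were under the detection limit. CG14292 was uneven, with 58.0, 74.0 and 261 in Sox21a EBs and 7.24, 8.93 and 9.31 in control EBs, so its lowest Sox21a library was only just past the floor. CG12594 had 125, 135 and 64.9 in Sox21a EBs and 6.21, 5.58 and 9.31 in control EBs. The mean of CG18507 was 74.6 normalized reads in Sox21a EBs and 4.56 in control EBs. Levels per kilobase ranged down to 20.6 for Nckx30C and 13.9 for Cow in Sox21a EBs, as both have long transcripts.

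Of the 29 genes, 9 lay next to another gene of the set, in 5 neighbouring pairs. On chromosome 3L (Release 6), CG12971 (21355100 to 21356495, minus strand), CG32437 (21357683 to 21359867, plus strand) and CG32440 (21360179 to 21361229, plus strand) followed one another, with gaps of 1187 and 311 bp. CG32437 had 114, 57.0 and 67.9 normalized reads in Sox21a EBs and 4.14, 2.23 and 2.07 in control EBs. CG32440 had 134, 132 and 90.5 in Sox21a EBs and 2.07, 3.35 and 3.10 in control EBs. Outside this run, CG32436 (log2 difference 1.55, limma adjusted p = 0.0044) and ebd2 (0.70, adjusted p = 0.0084) were higher. CG32436 was low, at 32, 28 and 17.7 normalized reads in Sox21a EBs and 7.24, 6.70 and 10.3 in control EBs. As ebd2 lies within the span of CG32436 on the other strand, these 2 differences may not be independent. The gene rgn was at -0.06 (adjusted p = 0.76). ebd2 was not called without Sox21a replicate 2 (0.67, adjusted p = 0.052).

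On chromosome 2R, Fmo-1 (23962956 to 23964641, plus strand) and CG13566 (23961477 to 23962577, minus strand) started 378 bp apart and pointed away from each other. CG13566 had 55.0, 77.0 and 94.4 normalized reads in Sox21a EBs and 3.10, 2.23 and 2.07 in control EBs. Both genes had their lowest Sox21a value in replicate 1 and their highest in replicate 3. The gene on the far side of CG13566, alpha-Catr, a catenin relative, was higher (log2 difference 3.51, limma adjusted p = 5.5e-05), but its exons overlapped 16.9% of those of CG13566 on the other strand. The library kit does not mark strand, so reads from such an overlap cannot be told apart. On the far side of Fmo-1, the haem synthesis gene Alas was at 0.63 (adjusted p = 0.031), a call that was lost under the rescaling (0.44, adjusted p = 0.054) and without any single library other than control replicate 1.

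On chromosome 2L, TwdlE (7857957 to 7860839) and Proc (7864642 to 7871432) lay 3802 bp apart on the minus strand. lectin-28C, a C-type lectin gene, overlaps TwdlE on the other strand over 71.9% of the TwdlE exon bases. It had 314, 356 and 224 normalized reads in Sox21a EBs, against 2.07, 19.0 and 8.27 in control EBs (log2 difference 5.15, limma adjusted p = 0.0010), and its 6 libraries stood in the same order as those of TwdlE. Which of these genes gave the reads cannot be told apart. CG11854 overlaps bam, a germline differentiation gene, over 21.6% of its exon bases, and bam had 221, 169 and 115.1 in Sox21a EBs and 4.14, 23.4 and 9.31 in control EBs (3.91, adjusted p = 0.0019).

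Nckx30C (2L, 9711512 to 9746495, minus strand) holds CG13116 (9729940 to 9730945, plus strand) in an intron. CG13116 had 69.0, 98.0 and 62.0 normalized reads in Sox21a EBs and was at the smallest value in every control library, at least 14.4-fold higher in Sox21a EBs against the detection limit. A further intronic gene, CG13117, is no member of the set because its control values were above the ceiling. It had 4476, 4433 and 3843 normalized reads in Sox21a EBs, against 15.5, 26.8 and 10.3 in control EBs (log2 difference 7.93, standard error 0.31, limma adjusted p = 1.4e-05). No annotated exon of Nckx30C overlapped either gene. How far unspliced reads of the host contribute was not tested.

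Over all 29 genes, 47 flanking genes were not in the set, and 25 of them were tested. Of these, 12 were higher and 3 lower in Sox21a EBs (limma adjusted p under 0.05), 48.0% higher beside 24.2% of all genes tested at their highest transcript, of which 10.2% were lower. Because some neighbours share bases with the gene they flank, the count was repeated without those: 21 were tested, 8 higher and 3 lower. CG13117 stayed among these 8, since it does not overlap CG13116, but it lies within Nckx30C. Without Sox21a replicate 2, 8 flanking genes were called higher in place of 12. Among neighbours that did not overlap, Naam, a nicotinamidase next to CG7432, had 4814, 4822 and 5462 normalized reads in Sox21a EBs, against 815, 1116 and 1169 in control EBs (log2 difference 2.30, adjusted p = 0.00021). CG12744, next to Lime, was at 1.63 (adjusted p = 0.00035). On the other hand, CG4364 beside Nckx30C fell by 1.25 on the log2 scale (adjusted p = 0.0030), and CG10344 beside ppk12 by 1.06 (adjusted p = 0.034). CG10344 was not called without control replicate 2 (adjusted p = 0.053) or any one Sox21a library (0.053 without replicate 1, 0.10 without replicate 2, 0.092 without replicate 3).

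The chromosome arms held 6 genes of the set on 2L, 7 on 2R, 8 on 3L and 8 on 3R. None lay on the X chromosome, which holds 12.4% of the placed genes that were silent in control EBs and 14.98% of all placed genes. Sox21a is on 3L. The genes of the set on that arm started between 0.664 Mb (CG10140) and 7.26 Mb (CG32440) from it, with rpr at 4.29 Mb. Since the Sox21a flies are homozygous for the mutated chromosome, an effect of linked sequence and one of Sox21a cannot be told apart in these groups.

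**Figure D3:**
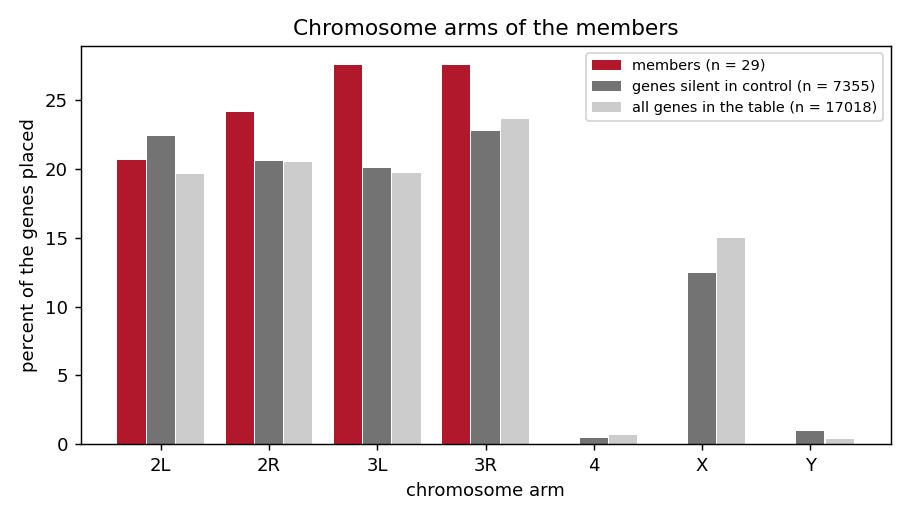
Percent of genes on each chromosome arm for the 29 genes of the set (red), the genes with all 3 control values at most 10 (dark grey) and all genes in the table (light grey). The set has no gene on X, Y or chromosome 4, and 27.6% on each of 3L and 3R.

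Within the Sox21a group the spread of the genes of the set was set beside that of other genes in the same range of means. The coefficient of variation over the 3 Sox21a libraries had a median of 19.0% (3.30% for CG4998 to 86.1% for CG14292), beside 12.4% over 4117 other genes in that range. Levels were not matched within the range of 59.1 to 930, where the set had a median of 131. The medians are therefore not a comparison at like level. Sox21a replicate 1 held the highest value for 15 of the 29 genes, replicate 2 for 8 and replicate 3 for 6. Of the other genes, 51.9% had their highest value in replicate 3. The lowest value fell in replicate 3 for 14 genes of the set. CG14292 and CG5390 were the plain exceptions, with replicate 3 at more than all other libraries together. These counts are descriptions of 3 libraries and carry no test.

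**Figure D4:**
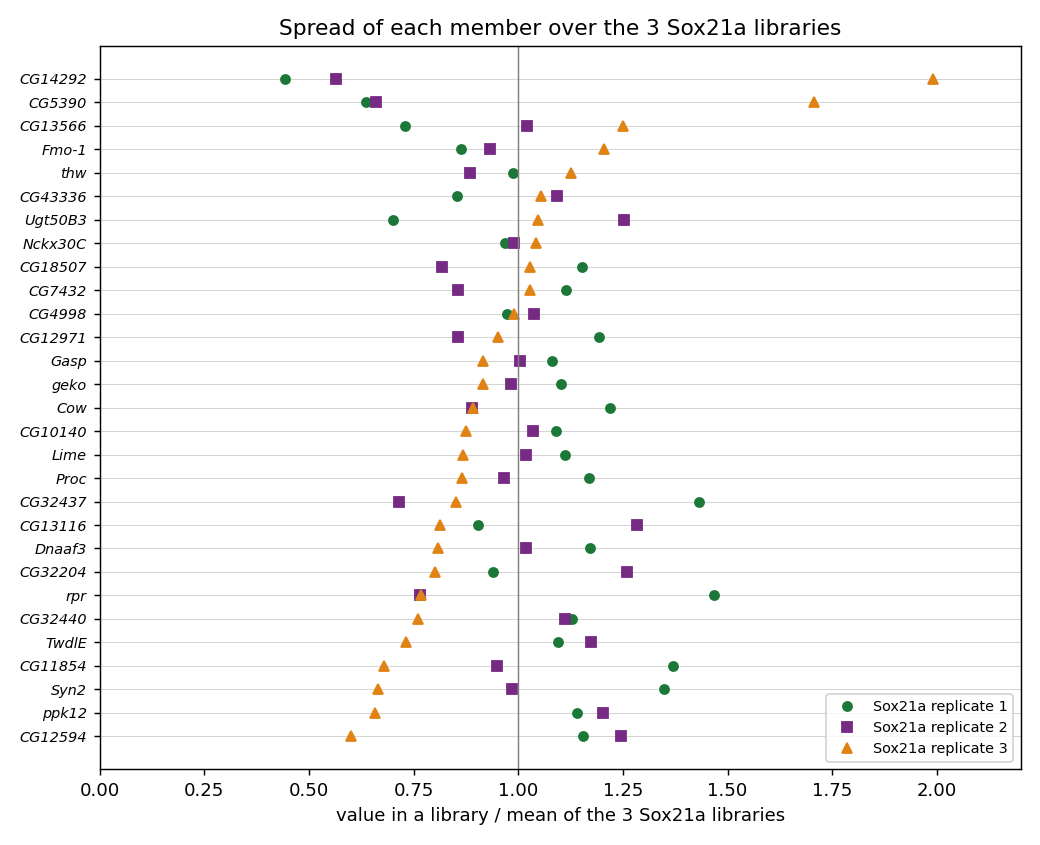
Value of each gene of the set in the 3 Sox21a libraries divided by the mean of the 3, ordered by replicate 3. Replicate 3 (triangles) is lowest for 14 genes and highest for 6, and CG14292 and CG5390 have the widest spread.

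The edges of the set were not sharp. Just inside the ceiling were Lime, ppk12 and CG12594, with a highest control value of 9.31 each, and just outside were Ugt49B1 (CG4302 in the table) and CG13004 at 10.05 and CG33494 at 10.34. The genes just inside the floor were Proc, Cow and CG13566, with a lowest Sox21a value of 51.2, 54.0 and 55.0. CG42260 at 46.2, CG14644 at 45 and 1 more gene at 44 were just outside. Another 5 genes met both thresholds and were left out by symbol. The largest of these, the drosomycin-like gene Drsl3, had 710, 942 and 1996 normalized reads in Sox21a EBs, against 9.31, 6.70 and 3.10 in control EBs. The P450 pseudogene Cyp6a15Psi had 371, 271 and 205 in Sox21a EBs and 3.10, 5.58 and 4.14 in control EBs, and the non-coding genes CR44717, CR45893 and CR46033 had Sox21a means of 169, 130 and 107. CR45893 shares 40.1% of the CG4998 exon bases on the same strand, so its value and that of CG4998 are not independent.

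The mirrored thresholds, with all 3 Sox21a values at most 10 and all 3 control values at least 50, were met by 11 genes, 0.0635% of all genes, or by 8 when the same symbols were left out. grim had the highest control mean of them. Others were Abd-B, a posterior Hox gene, with 6, 8 and 4.92 normalized reads in Sox21a EBs and 65.2, 75.9 and 59.0 in control EBs, and dpr10, a cell surface recognition gene, with 8, 8 and 3.93 in Sox21a EBs and 217, 162 and 127 in control EBs. Of the 8, 5 lay on 3L.

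**Figure D5:**
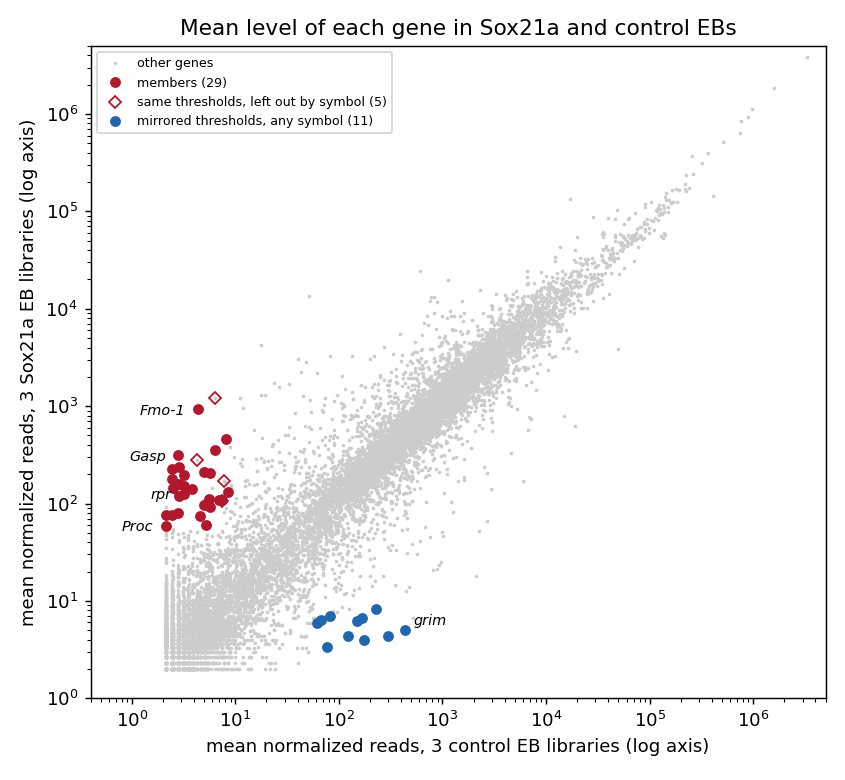
Mean normalized reads of each gene in Sox21a EBs (vertical, log axis) and control EBs (horizontal, log axis). The 29 genes of the set (red) occupy the left edge, the 5 left out by symbol (open diamonds) lie among them, and the 11 genes that met the mirrored thresholds (blue) lie at the bottom, with grim farthest right.

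Markers of the cell types that a midgut sort could hold moved between the groups as follows. Of 9 enterocyte markers tested, 6 were lower and none higher by limma, beside 10.2% lower and 24.2% higher of all genes tested. At an unadjusted p under 0.05, 7 of these markers were lower and 0 higher in Sox21a EBs. Their summed level was 21240 to 25805 normalized reads in Sox21a EBs and 46349 to 86934 in control EBs. Of 10 markers of stem cells and EBs, 2 were higher and 2 lower, with Su(H) at -0.37 (limma adjusted p = 0.097). With the replicate block, 2 of these markers were higher and 3 lower. The summed level of this list was 50978 to 66336 normalized reads in Sox21a EBs and 79344 to 99665 in control EBs. klu, an EB marker, was present in every library, at 1498 to 2372 normalized reads in Sox21a EBs and 2077 to 2851 in control EBs. Among haemocyte markers, which Lime bears on, 1 of 5 tested was higher and 2 lower. The summed level of the haemocyte list was 15394 to 18771 normalized reads in Sox21a EBs and 9701 to 10515 in control EBs. The part of any of these cell types in the 29 genes was not tested. Over all marker and gene lists, 72 genes were higher and 44 lower of 264 tested outside the set, beside the same shares of all genes.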

How the data were processed

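RNA-seq was made from EBs sorted by FACS, 3 Sox21a and 3 control libraries, after selection and amplification of mRNA, which can favour some transcripts. The authors mapped reads to Release 6 with Bowtie2, counted them in exons and deposited a signal, the reads of each of 19674 transcripts divided by a size factor. Whether the 2 steps at the bottom of each library were added or are a floor is not given in the sources used here. A second deposited table holds the authors' own log2 fold changes, p-values and adjusted p-values and was not used. All per-library columns were used (0 left out).

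Here, limma 3.58.1 (R 4.3.3; lmFit, eBayes) was run on log2(value + 1) over 11400 transcripts (mean at or above 10), with Benjamini-Hochberg adjustment and a threshold of 0.05. The script was tested on simulated data. Genes of the set were given no test. The set and the gene lists were chosen with earlier results of these data known, and the lists of families of single members were written after the set was known. Named with values were the 15 most abundant members, the 10 most abundant whose control values were all at or under the limit, members with a gene name, genes at the thresholds, those left out by symbol and list genes quoted for their call. Members next to or of one family with another, flanking genes and genes of the mirrored thresholds were named after their values were seen.

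Deviations of same-numbered libraries of both groups were weakly correlated (r = 0.17, 0.13 and 0.12 over 11400 transcripts). Differently numbered libraries had r from -0.18 to 0.05. Whether the numbers mark a shared batch or pairing is not given in the sources used here. They served as a replicate block in a second fit, which is given beside some results. Changes it made to other list counts quoted here are given at the end. Positions, exons and overlaps came from the Ensembl annotation of the same assembly, to which 17018 genes matched. Tables were handled in Python 3.11.15 (numpy 2.4.6, pandas 2.3.3) and figures drawn with matplotlib 3.10.9.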

Additional observations from a re-analysis of the deposited data

How the results depend on the processing

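The size of the set followed its thresholds. A control ceiling of 5 left 14 genes and a ceiling of 20 gave 58, while a Sox21a floor of 25 gave 60 and a floor of 100 left 14. Leaving out 1 library in turn gave 29 to 36 genes, which include the 29 since fewer values must then pass. Rescaling left 24 of the 29 (Lime, TwdlE, CG14292, Cow and Proc were lost) and the sum over transcripts 26. Subtracting the smallest value gave 34 genes, with 28 of the 29 kept and Proc lost. The median log2 difference of the named members was 4.96, and it was 5.29 with a pseudocount of 0.1 and 3.31 with a pseudocount of 10. Of all transcripts, 3986 were called, 1905 at an adjusted p under 0.01, 2444 to 5060 without 1 library and 4244 with the replicate block. The higher calls among flanking genes were 8 to 14 without 1 library and 12 with the replicate block. The listed genes called were 116, also 116 with the replicate block, and 89 to 130 without 1 library. With the block, the cell type lists differed in a call or so each. The block called 5 enterocyte markers lower, in place of 6, and 4 enteroendocrine markers higher, in place of 5. It called 9 other UDP-glycosyltransferases lower, in place of 8, and 35 other serine proteases and homologues lower, in place of 33. The call of trh (limma adjusted p = 0.026) was lost under the rescaling (0.065). It was also lost without control replicate 2 (0.074), Sox21a replicate 1 (0.072) or Sox21a replicate 2 (0.085). No called difference of a single gene changed sign in the settings run; of differences that were not called, those of knk (-0.08 without control replicate 2), rgn (0.02 without control replicate 3) and Sox21a (up to 0.06 without Sox21a replicate 1), all near 0, did. Count models on recovered reads, listed as an alternative, were not run because the deposited values are not counts, and the listed promoter motifs were not run because no promoter sequence was used here. Depth limits the control values: under about 5 normalized reads, absence and low level were not distinguishable.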
